A study of Homo sapiens with 4 samples.

Results

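The MYC-MAX-MXD network was followed as the RNA of 10 genes in U937 cells, a widely used human myeloid line from a histiocytic lymphoma. The members were the rows of the deposited gene count table whose symbol is MYC, MAX, MXD1, MXD3, MXD4, MXI1, MNT, MGA, MLX or MLXIP. Each symbol matched 1 row, so all 10 were found among the 60662 entries of the table. The study compared cells given 10 nM PMA, which switches on protein kinase C enzymes, for 72 h with cells cultured without PMA for the same time. There were 2 PMA libraries and 2 untreated libraries, 1 of each titled lot 1 and 1 of each titled lot 2. The labels describe the PMA culture as differentiation to macrophage-like cells, and all cells were of the 1 line, so the comparison describes that line. Whether the lots were separate cultures is not stated, so each p reflects only how far these libraries differ, and that spread may be technical.

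MYC is a basic helix-loop-helix leucine zipper protein that binds DNA only as a pair with MAX, mainly at the E-box, and drives genes of growth, ribosome production and cell cycle entry. MXD1, MXI1, MXD3 and MXD4 compete with MYC for MAX and bring the SIN3 histone deacetylase corepressor to the same sites, MNT does so in most cell types, and MGA pairs with MAX within a Polycomb complex. MLX is a MAX-like partner that pairs with MLXIP, the glucose-sensing factor MondoA, and with several of the repressors. MYC is known to fall and MXD1 to rise when myeloid cells leave the cell cycle and mature.

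Levels are given per library in normalised CPM, counts scaled to one library size, and log2 fold changes are PMA over untreated ± standard error. Total counts were 35739833 to 54915928 per library. The 8 myeloid markers summed to 13037 and 14652 CPM with PMA (lots 1 and 2) and to 1591 and 2316 CPM without. Most of each PMA sum was ITGB2, at 10451 and 11987 CPM. Of the 8 markers, ITGB2 (log2 fold change 3.59), FCER1G (4.14) and CYBB (5.95) were called higher and 0 were called lower. Over all tested genes, 4.29% were called higher and 2.02% lower. LYZ had a log2 fold change of −1.63, at 211 and 126 CPM with PMA and at 136 and 905 CPM without, and its groups overlapped. CD33 was at 72.7 and 66.1 CPM with PMA and at 62.3 and 71.1 CPM without. CD3D, CD3E and CD3G of T cells and MS4A1 of B cells were at 0 in every library. The 5 T cell markers summed to 7.33 and 26.3 CPM with PMA and 0.285 and 0 CPM without, all of it TRAC, the 5 B cell markers to 11.3 and 13.5 CPM with PMA and 26.8 and 17.6 CPM without, and the 5 erythroid markers, of which 4 were at 0 throughout, to 0.921 and 0 CPM with PMA and 2.94 and 8.14 CPM without. Fibroblast and epithelial markers summed to at most 0.368 CPM in any library. The part of any of these transcripts in the results was not tested.

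RefSeq promoters (build GRCh38.p14, 300 bases around the start, most of them upstream) were matched by symbol for every member but MYC, 14 promoters of 9 genes. The promoters of the 3 MXD genes with the largest fitted changes are printed here so that their letters can be set beside fold changes that differ in sign. Capitals mark the GC box GGGGCGGGG in MXD1 (chr2:69914859-69915158, plus strand), the E-box CACGTG in MXD4 (chr4:2262060-2262359, minus strand) and the AP-1 motif TGANTCA in MXD3 (chr5:177312703-177313002, minus strand).
MXD1: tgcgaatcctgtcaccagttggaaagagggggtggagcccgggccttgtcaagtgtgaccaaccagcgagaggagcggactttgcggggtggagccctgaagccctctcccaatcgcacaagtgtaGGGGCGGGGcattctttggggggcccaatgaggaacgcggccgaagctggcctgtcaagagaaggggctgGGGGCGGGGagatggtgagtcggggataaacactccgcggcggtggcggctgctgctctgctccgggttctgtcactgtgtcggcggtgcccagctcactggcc
MXD4: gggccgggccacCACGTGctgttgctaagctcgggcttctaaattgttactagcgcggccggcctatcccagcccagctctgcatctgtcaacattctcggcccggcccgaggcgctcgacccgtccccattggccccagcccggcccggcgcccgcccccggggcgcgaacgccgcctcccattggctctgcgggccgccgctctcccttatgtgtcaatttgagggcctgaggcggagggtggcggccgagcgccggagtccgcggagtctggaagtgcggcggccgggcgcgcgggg
MXD3: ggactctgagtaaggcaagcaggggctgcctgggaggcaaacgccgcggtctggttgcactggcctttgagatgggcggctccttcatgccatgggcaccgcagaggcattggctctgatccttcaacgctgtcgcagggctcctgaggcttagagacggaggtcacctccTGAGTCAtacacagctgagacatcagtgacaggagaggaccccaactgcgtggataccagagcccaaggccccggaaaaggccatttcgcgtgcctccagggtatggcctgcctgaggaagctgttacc
The 3 motifs, chosen after the sequences had been seen, were searched on both strands, and no matches overlapped in the members. The E-box was in 3 of the 14 promoters (1 each of MXD4, MNT and MLX), against 7.26% of all 35116 promoters, and it began 238, 193 and 50 bases before the start. The AP-1 motif was in 1 of the 14, that of MXD3, 79 bases before the start, against 7.71% of all promoters. The GC box was in 2 of the 14, that of MXD1, 124 and 54 bases before the start, and 1 of MNT, against 15.7% of all promoters. These are matches of letters, and the data hold no measurement of binding.

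With PMA, MYC fell and its antagonist MXD1 rose, while MAX, their shared partner, overlapped between groups. By the quasi-likelihood test of edgeR, adjusted over 16451 genes after Benjamini and Hochberg, 1 of the 10 members was higher (MXD1) and 1 was lower (MYC) at an adjusted p under 0.05, against 4.29% of all tested genes called higher and 2.02% called lower. All 10 members passed the filter on low counts. The median log2 fold change was 0.15 over the members and 0.00 over all tested genes. In bulk RNA, fewer cells of a kind and less RNA per cell cannot be told apart.

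MYC, the activator of the network (ENSG00000136997.19), was at 47.2 and 40.3 CPM in the PMA libraries of lots 1 and 2, against 329.5 and 364 CPM in the untreated libraries. The groups were far apart, and the libraries of each group lay close together. These levels rest on 1537 and 1863 counts with PMA and on 20827 and 15714 counts without. MYC fell by 2.99 ± 0.32 on the log2 scale, a 7.93-fold lower level (adjusted p = 0.0224 by edgeR). The log2 ratio was −2.80 within lot 1 and −3.18 within lot 2. The call was lost without the PMA library of lot 1 (adjusted p = 0.0524 by edgeR) and without that of lot 2 (0.0896), with 2.76e-15 as the lowest value over 16 alternatives, from DESeq2. By size, 789 of the 16451 tested genes had a fitted fold change as low as or lower than that of MYC.

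MAX, the partner that MYC needs to bind DNA and that the MXD proteins share, was at 47.2 and 64.1 CPM with PMA and at 52.9 and 76.7 CPM without. The groups overlapped, and lot 2 was higher than lot 1 in both. Its log2 fold change was −0.22 ± 0.38 (adjusted p = 0.771 by edgeR).

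**Figure D1:**
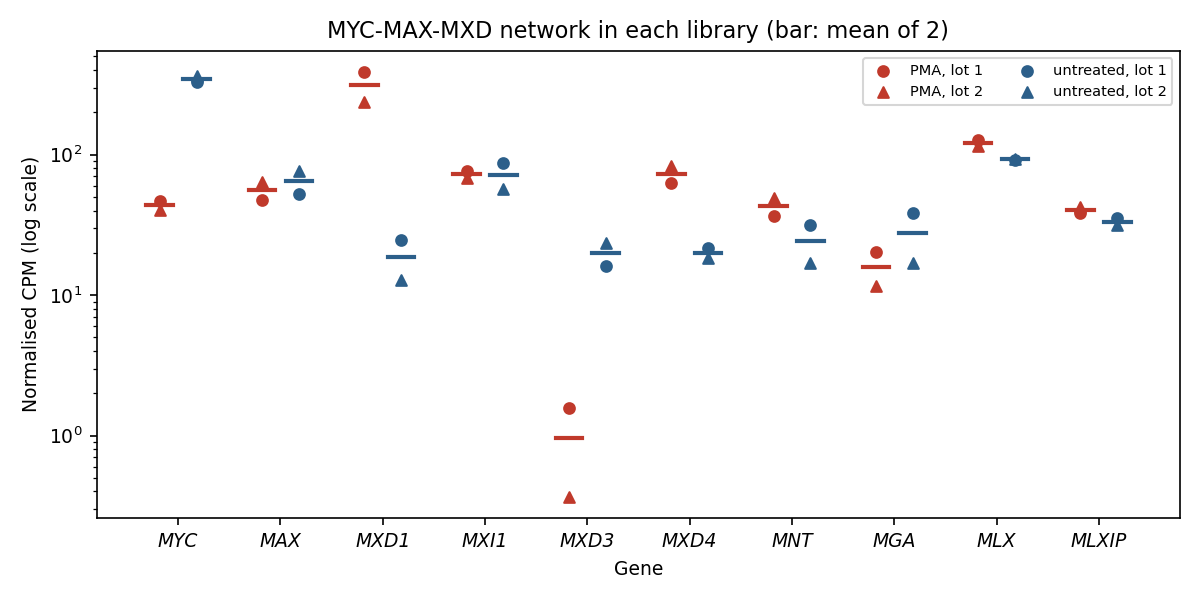
Normalised CPM of the 10 members on a log axis, with PMA libraries (red) left of untreated libraries (blue), circles for lot 1, triangles for lot 2 and bars for the mean of 2 libraries. MYC sits at 47.2 and 40.3 CPM with PMA and at 329.5 and 364 CPM without, MXD1 at 388 and 239 CPM with PMA and at 24.7 and 12.9 CPM without.

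Of the 6 repressors that pair with MAX, MXD1 passed the test. MXD1, a short-lived repressor linked to terminal differentiation, was at 388 and 239 CPM with PMA, against 24.7 and 12.9 CPM without. Both PMA libraries were above both untreated libraries, and in each group the library of lot 1 was the higher one. MXD1 rose by 4.06 ± 0.52 on the log2 scale, or 16.7-fold (adjusted p = 0.0272 by edgeR), with log2 ratios of 3.97 within lot 1 and 4.22 within lot 2. The call held in 15 of 16 alternatives and was lost only at a threshold of 0.01, which no gene of the table passed. Among the 16451 genes, 804 had a fitted fold change as high or higher. In the annotation used for lengths, 3.73% of the exon bases of MXD1 are shared with SNRNP27, which was at 30.4 and 24.4 CPM with PMA and at 20.9 and 17.6 CPM without.

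MXD4, another member of the MXD family, was at 62.5 and 83.1 CPM with PMA and at 21.7 and 18.5 CPM without. The groups did not overlap, and the log2 ratio was 1.53 within lot 1 and 2.17 within lot 2. Its fitted log2 fold change of 1.86 ± 0.37 did not pass the test (adjusted p = 0.0532 by edgeR). It passed in 4 of 16 alternatives, with adjusted p-values from 3.58e-05 with DESeq2 to 0.364 without the PMA library of lot 2.

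MXD3, the MXD protein that is known from mouse cells to be made in S phase, was at 1.56 and 0.368 CPM with PMA, from 51 and 17 counts, and at 16.1 and 23.6 CPM without, from 1016 and 1018 counts. The groups did not overlap, and the log2 ratio was −3.36 within lot 1 and −6.00 within lot 2. The fitted log2 fold change of −4.37 ± 0.89 did not pass the test (adjusted p = 0.0559 by edgeR). It passed in 7 of 16 alternatives, from 4.07e-06 with DESeq2 to 0.110 without the PMA library of lot 2. Of its 5154 exon bases, 1158 lie opposite PRELID1 and 926 are shared with RAB24 on the same strand. PRELID1 was at 140 and 130 CPM with PMA and at 177 and 469 CPM without, and RAB24 at 18.4 and 29.9 CPM with PMA and at 14.0 and 38.9 CPM without. How strand was used is not stated in the sources, so the counts of MXD3 and these neighbours are uncertain.

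MXI1, also called MXD2, was at 76.7 and 68.6 CPM with PMA and at 87.2 and 56.7 CPM without. The PMA libraries lay within the range of the untreated ones, with a log2 fold change of 0.01 ± 0.36 (adjusted p = 0.987 by edgeR), which turned negative in 8 of 16 alternatives, among them upper-quartile factors (−0.14). MNT was at 36.4 and 49.5 CPM with PMA and at 31.3 and 17.0 CPM without. Its groups did not overlap, but the log2 ratio was 0.22 within lot 1 and 1.54 within lot 2, and the fitted 0.83 ± 0.46 did not pass the test (adjusted p = 0.332 by edgeR). MGA, the largest protein of the network, was at 20.2 and 11.7 CPM with PMA and at 38.3 and 16.8 CPM without. Its groups overlapped, and the log2 fold change was −0.79 ± 0.58 (adjusted p = 0.457 by edgeR).

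MLX and MLXIP form the branch that answers to glucose. MLX was at 126 and 116 CPM with PMA and at 91.3 and 93.6 CPM without. MLXIP was at 38.6 and 42.3 CPM with PMA and at 35.2 and 31.5 CPM without. Neither overlapped between groups, yet the differences were small, with log2 fold changes of 0.39 ± 0.29 for MLX and 0.28 ± 0.34 for MLXIP (adjusted p = 0.471 and 0.665 by edgeR). MLX shares 770 of its 4259 exon bases with PSMC3IP on the opposite strand, which was at 0.307 and 0.303 CPM with PMA and at 2.90 and 3.25 CPM without. The log2 fold change of MLXIP was −0.16 with the trend of fold change on gene length removed. Of all members, 5 had both PMA libraries above both untreated ones and 2 had them below, where 31.0% and 29.4% of all tested genes did so.

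**Figure D2:**
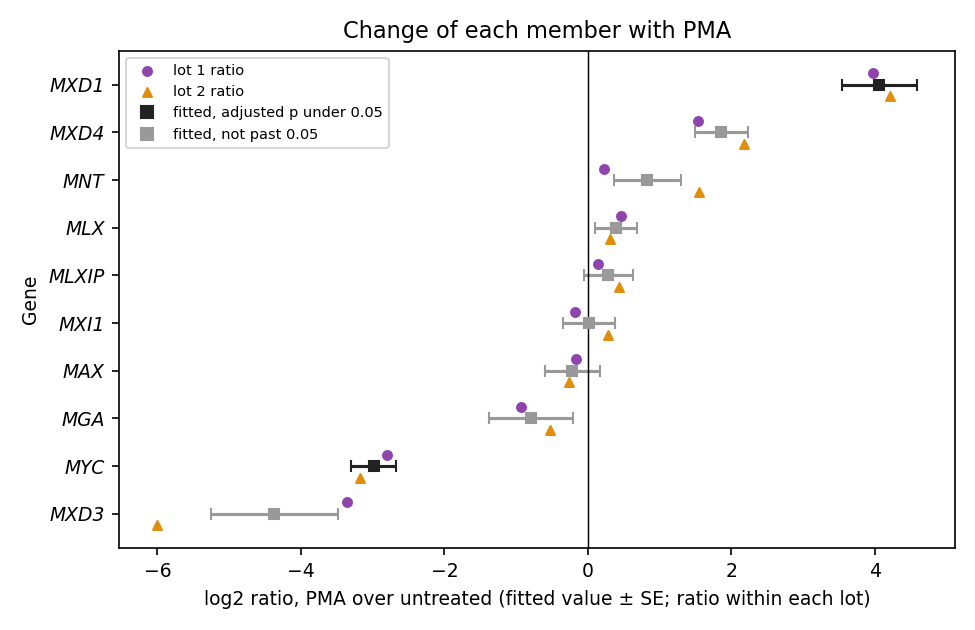
Log2 ratio of PMA to untreated for each member, from the highest at the top to the lowest at the bottom, with squares for the fitted value and its standard error (black where the adjusted p is under 0.05), circles for lot 1 and triangles for lot 2. MXD1 at 4.06 and MYC at −2.99 are the members past the threshold, and MXD3 at −4.37 has its lots furthest apart, at −3.36 and −6.00.

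The authors' deposited table gives the same members with their own fold changes. In the authors' deposited table the log2 ratio of PMA to untreated was −3.00 for MYC (q = 0.000198), 4.04 for MXD1 (q = 3.05e-06), −4.38 for MXD3 (q = 0.0223) and 1.85 for MXD4 (q = 0.322). The other 6 members had a q-value of 1 in the authors' deposited table. With q-values under 0.05, that table held 1.48% of its 60662 entries as higher and 0.742% as lower. Of the genes counted, 33746 were at 0 in all libraries. These shares are of all entries, while the edgeR and DESeq2 shares are of the 16451 tested genes, so they are not alike. DESeq2 called MXD1 and MXD4 higher and MYC and MXD3 lower, against 12.9% of genes called higher and 10.2% called lower.

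Because long transcripts give more counts, levels of different members were compared per kb of annotated exon. In the PMA libraries MXD1 was the highest member at 49.4 ± 16.6 CPM per kb (SD, n = 2), followed by MLX at 28.4 ± 1.69. MXI1 (15.8 ± 1.24), MYC (14.6 ± 1.62), MAX (12.6 ± 2.69) and MXD4 (10.3 ± 2.06 CPM per kb) came next, each overlapping its neighbour in this order. MNT, MLXIP, MGA and MXD3 were at 4.92 or below. In the untreated libraries MYC was highest at 116 ± 8.18 CPM per kb, above MLX at 21.7 ± 0.382, MXI1 at 15.6 ± 4.67 and MAX at 14.6 ± 3.80. MXI1 and MAX overlapped there, and so did MXD3, MXD1, MXD4, MNT and MLXIP in that order, from 3.85 ± 1.03 to 2.40 ± 0.189 CPM per kb, each with the next. MGA was lowest, at 2.17 and 0.952 CPM per kb, below both values of MLXIP. MYC thus stood above every repressor in both untreated libraries, and overlapped MXI1 with PMA.

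Shares were taken among the 7 members whose proteins pair with MAX, without the relatives MYCN and MYCL. MYC made up 14.6% and 16.0% of the summed counts per kb in the PMA libraries of lots 1 and 2, against 76.0% and 83.2% in the untreated libraries. MXD1 made up 56.6% and 44.7% with PMA, against 2.69% and 1.39% without. Among these 7, the largest share of RNA was that of MYC in both untreated libraries and that of MXD1 in both PMA libraries. MXI1 was above MXD1 in both untreated libraries and above MYC in both PMA libraries. MXI1 held 15.4% and 17.7% with PMA and 13.1% and 8.45% without, MXD4 8.21% and 14.0% with PMA and 2.13% and 1.79% without, and MNT and MGA together 4.93% and 7.53% with PMA and 3.98% and 1.99% without. Per kb, MXD1 was 3.89 and 2.80 times MYC with PMA, while MYC was 28.2 and 59.9 times MXD1 without. The summed level of the 7 genes was 96.0 ± 16.8 CPM per kb with PMA and 145 ± 0.874 without (SD, n = 2 each). That sum was 10.1 and 5.81 times the level of MAX with PMA and 12.1 and 8.42 times without. Shares of RNA are not shares of protein, and no test was made of them, as an exact two-sided permutation test of 2 libraries against 2 cannot go below p = 0.333.

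**Figure D3:**
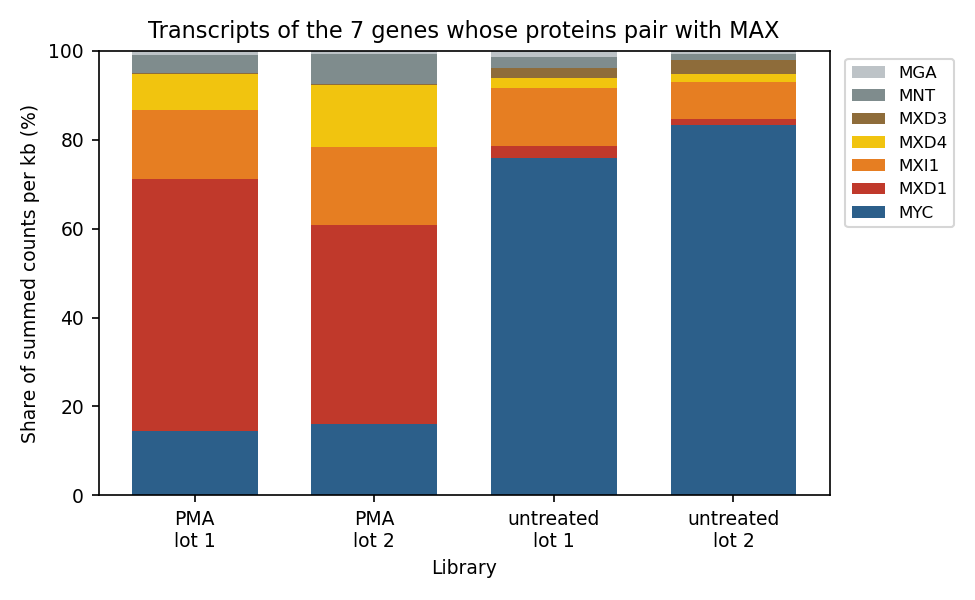
Share of each of the 7 MAX partner genes among the members in their summed counts per kb, in percent, as 1 stacked bar per library with the PMA libraries on the left. MYC (blue, at the base) takes 14.6% and 16.0% with PMA and 76.0% and 83.2% without, and MXD1 (red) 56.6% and 44.7% with PMA and 2.69% and 1.39% without.

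Relatives outside the members were scarce. MYCN was listed at 0 in all 4 libraries, and MLXIPL, the liver relative of MLXIP known as ChREBP, had 18 counts in the untreated library of lot 1 and 0 in the others. MYCL was at 5.19 and 4.74 CPM with PMA and at 2.04 and 4.94 CPM without (adjusted p = 0.703 by edgeR).

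Around the network, 8 lists of 106 genes were followed, of which 105 were matched and 101 tested. In all, 3 of them were higher and 13 lower with PMA, against 4.29% higher and 2.02% lower over all tested genes. With the lot as a block the lower calls were 4, all among the 13 (CDC25A, FBL, RUVBL2 and SRM). Without the PMA library of lot 1 all 13 were lost and 3 others were called lower (CIP2A, PLK1 and TRIM32), without that of lot 2 there were 0, and without the untreated library of lot 1 there were 31.

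Of 14 MYC cofactors tested, 2 were lower and 0 higher, against 2.02% and 4.29% of all genes, with a median log2 fold change of −0.45. These were the paired helicases RUVBL1 and RUVBL2 of the TIP60 and INO80 complexes. RUVBL2 was at 54.1 and 49.6 CPM with PMA and at 274 and 382 CPM without, and fell by 2.66 ± 0.34 (adjusted p = 0.0270 by edgeR, 5.28e-10 to 0.124 over 16 alternatives). RUVBL1 was at 22.4 and 18.7 CPM with PMA and at 89.1 and 166 CPM without, and fell by 2.64 ± 0.45 (adjusted p = 0.0402 by edgeR). ACTL6A, an actin-related subunit of the same complexes, was at −1.43 ± 0.37 and did not pass the test (adjusted p = 0.0852 by edgeR).

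MXD proteins repress through SIN3 and histone deacetylases. Of 17 SIN3-HDAC genes, 1 was lower and 0 higher, with a median of −0.14, against 2.02% lower and 4.29% higher over all genes, so the count is near the background. The histone chaperone RBBP7 was at 109 and 106 CPM with PMA and at 337 and 299.5 CPM without, and fell by 1.57 ± 0.29 (adjusted p = 0.0480 by edgeR), a call lost in 7 of 16 alternatives. The scaffold SIN3A was at 96.6 and 95.5 CPM with PMA and at 166 and 87.9 CPM without, and the deacetylase HDAC1 at 200.3 and 150.3 CPM with PMA and at 152 and 211 CPM without, so both overlapped between groups. HDAC2 (−1.04 ± 0.33, adjusted p = 0.120 by edgeR) and SAP30 (−1.52 ± 0.46, adjusted p = 0.113 by edgeR) did not pass. None of 9 genes of the MGA Polycomb complex passed. Of them, 2 had an unadjusted p under 0.05 by edgeR, the smallest being 0.0172, against 4445 of all 16451 tested genes. The median of the 9 was −0.25, with TFDP1 at −1.01 ± 0.29 and RYBP at 1.35 ± 0.49 (adjusted p = 0.100 and 0.167 by edgeR). DESeq2 called both, TFDP1 lower and RYBP higher, against 10.2% lower and 12.9% higher over all genes.

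Of 17 genes of MYC protein turnover, 2 were lower and 0 higher, against 2.02% and 4.29% of all genes, with a median of −0.37. SKP2, a ubiquitin ligase subunit that targets MYC and p27, was at 10.0 and 8.13 CPM with PMA and at 44.4 and 46.0 CPM without (−2.31 ± 0.38, adjusted p = 0.0389 by edgeR). AURKA, a mitotic kinase that shields MYC proteins from degradation, was at 31.3 and 22.5 CPM with PMA and at 118 and 105 CPM without (−2.05 ± 0.36, adjusted p = 0.0423 by edgeR). The mitotic kinase PLK1, at −3.00 ± 0.60, did not pass (adjusted p = 0.0534 by edgeR). FBXW7, the ligase subunit that recognises phosphorylated MYC, was at 12.0 and 10.6 CPM with PMA and at 7.63 and 7.93 CPM without (adjusted p = 0.524 by edgeR).

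Of 30 MYC-induced targets tested, 8 were lower and 1 higher, against 2.02% lower and 4.29% higher over all genes. In both lots 26 of the 30 had a ratio below 0 on the log2 scale, against 31.6% of all genes. Their median log2 fold change was −1.59, against 0.00 over all genes. CDC25A, the phosphatase that activates cyclin-dependent kinases, was at 12.6 and 10.8 CPM with PMA and at 72.8 and 126 CPM without (−3.08 ± 0.44, adjusted p = 0.0310 by edgeR). CDK4 was at 99.7 and 79.2 CPM with PMA and at 292 and 516 CPM without (−2.18 ± 0.41, adjusted p = 0.0490 by edgeR), a call lost in 8 of 16 alternatives. The other genes called lower were FBL, NPM1 and NOLC1 of the nucleolus, CAD of pyrimidine synthesis, SRM of polyamine synthesis and cyclin D2 (CCND2). The polyamine enzyme ODC1 was at 96.0 and 67.8 CPM with PMA and at 159 and 242 CPM without, and the nucleolar protein NCL at 191 and 219 CPM with PMA and at 424 and 899.98 CPM without (adjusted p = 0.107 and 0.0874 by edgeR).

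The MYC-induced gene called higher was TFRC, the transferrin receptor. It was at 583 and 362 CPM with PMA and at 92.1 and 80.9 CPM without (2.45 ± 0.37, adjusted p = 0.0348 by edgeR), and the call was lost in 5 of 16 alternatives. The E-box was in 14 of the 34 RefSeq promoters matched for 24 of the 31 listed MYC-induced genes, against 7.26% of all promoters. The list was made of known MYC targets, and MYC binds mainly at the E-box, so this share is no independent test. The untreated libraries differed in this list, with 22 of 30 genes higher in lot 2 than in lot 1, against 44.4% of all genes. The median log2 ratio of lot 2 to lot 1 was 0.73, against −0.08 over all genes. MYC was at 364 and 329.5 CPM in untreated lots 2 and 1, and the cause of the gap between lots was not tested. NOP56, at 672 and 178 CPM in untreated lots 2 and 1, and NME1, at 165 and 38.9 CPM, had gaps wider than this median. They were picked after their values were seen.

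Of 9 genes known to be repressed by MYC, 2 were higher and 0 lower, against 4.29% and 2.02% of all genes, with a median of 0.11. In both lots 3 of the 9 had a log2 ratio above 0 and 2 had one below, against 5210 and 5195 of all 16451 tested genes. NDRG2, at 0 in both untreated libraries, had no ratio. The 2 genes called higher are CDK inhibitors. CDKN1A (p21) was at 1151 and 1200.5 CPM with PMA and at 5.74 and 7.16 CPM without (7.51 ± 0.38, adjusted p = 0.0148 by edgeR). CDKN2B (p15) was at 67.6 and 50.2 CPM with PMA and at 2.48 and 0.556 CPM without (5.26 ± 0.87, adjusted p = 0.0389 by edgeR). The calls of CDKN1A and CDKN2B held in 15 of 16 alternatives, all but the threshold of 0.01. NDRG1 was at 224 and 399 CPM with PMA and at 96.3 and 71.9 CPM without and did not pass (adjusted p = 0.0632 by edgeR). CDKN1B (p27) was at −0.68 ± 0.55 on the log2 scale (adjusted p = 0.501 by edgeR).

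None of the 4 tested MondoA-MLX targets passed. Of them, 1 had an unadjusted p under 0.05 by edgeR, against 4445 of all 16451 tested genes. DESeq2 called 1 of the 4, KLF10, higher, against 12.9% of all genes. The transcription factor KLF10 was at 107 and 119 CPM with PMA and at 30.6 and 15.2 CPM without (2.30 ± 0.46, adjusted p = 0.0550 by edgeR). TXNIP, the thioredoxin-binding protein most often used as a readout of MondoA, was at 106 and 150 CPM with PMA and at 113 and 29.3 CPM without. The untreated libraries of TXNIP differed more from each other than the groups did. ARRDC4 was listed at 0 in all libraries, and hexokinase HK2 was at 212 and 197 CPM with PMA and at 151 and 62.7 CPM without (0.94 ± 0.49 on the log2 scale) and did not pass.

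**Figure D4:**
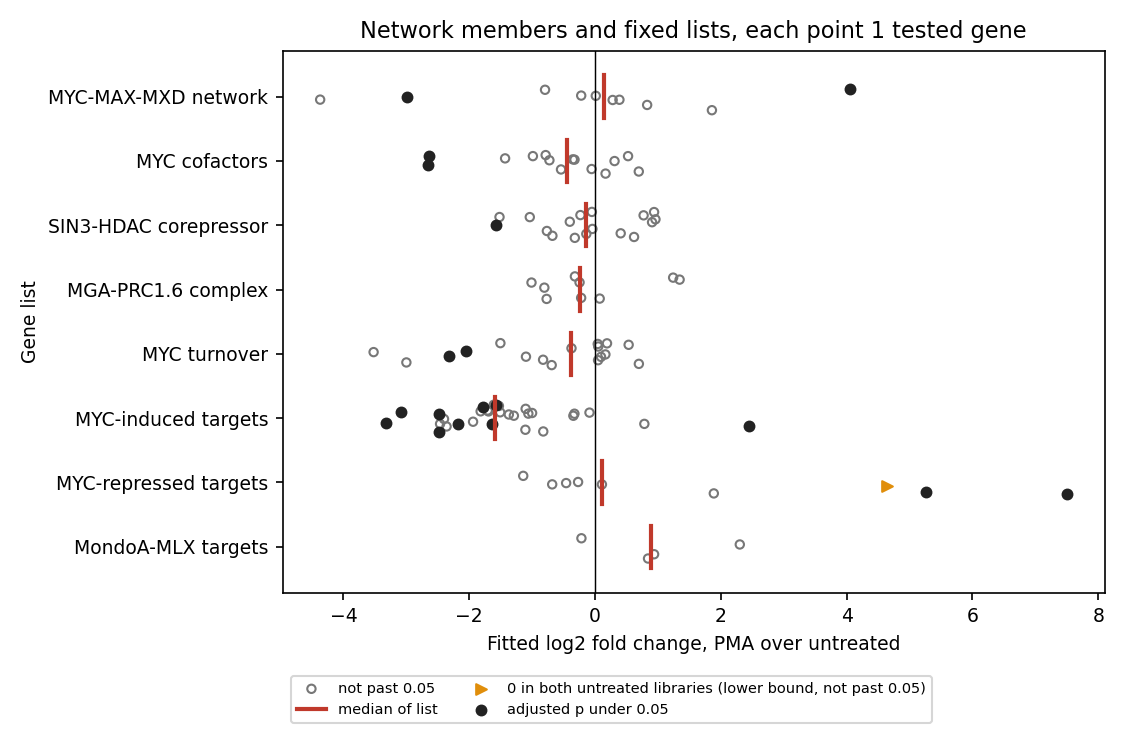
Fitted log2 fold change of each tested gene in the network and in 7 fixed lists, with filled points at an adjusted p under 0.05, open points otherwise, a triangle for NDRG2 at its lower bound (0 in both untreated libraries) and red lines for list medians. The MYC-induced targets have their median at −1.59, with TFRC alone among the called genes of that list on the right.

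The genes whose pattern over the 4 libraries lay nearest to that of MYC, by Euclidean distance of centred log2 CPM, were UROC1 (0.0933), MIS18A (0.124) and RPP40 (0.212). UROC1, of histidine breakdown, was at 2.27 and 2.01 CPM with PMA and at 15.8 and 19.0 CPM without. MIS18A, which helps to load CENP-A at centromeres, was at 6.41 and 6.19 CPM with PMA and at 47.9 and 52.7 CPM without, and RPP40, a subunit of RNase P, at 4.02 and 3.85 CPM with PMA and at 26.1 and 29.9 CPM without. Nearest to MXD1 were ZFYVE16 (0.276), SNX9 (0.282) and PDE3B (0.291). The sorting nexin SNX9 was at 309 and 216 CPM with PMA and at 18.7 and 12.4 CPM without, with lot 1 the higher one in both groups as for MXD1.

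Gene length moved with the treatment and with the lot. Over all tested genes the median log2 fold change was −0.33 among the shortest genes (0.059 to 2.06 kb of exon) and 0.29 among the longest (6.63 to 205 kb), which are equal parts of the table,, and the median log2 ratio of untreated lot 2 to lot 1 was 0.14 in the shortest set and −0.53 in the longest. MYC has 3001 and MXD1 6351 bases of exon, while MXD4, MNT, MLXIP and MGA, at 7.06 to 17.7 kb, belong to the longest set. With the length trend removed, MYC was at −2.85 and MXD1 at 3.91 (adjusted p = 0.0175 and 0.0198 by edgeR), MGA at −1.22 (adjusted p = 0.135) and MXD3 at −4.51, then past the threshold (adjusted p = 0.0461).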

How the data were processed

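Poly(A) RNA of 4 libraries was sequenced after preparation with an Ion Total RNA-Seq kit, per the labels' protocols. The values used are estimated counts that the authors deposited for each gene, whole numbers not scaled between libraries, so rounding changed none. HISAT2 2.1.0 and StringTie 2.1.1 are named, without roles, per the submitters' processing notes. Not given in the sources used here are the build, the annotation and the strand setting. A second deposited table holds the authors' log2 ratio and q-value per gene, from TCC per the file headers.

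Counts were fitted on the whole table with edgeR 4.0.16 in R 4.3.3 (TMM, filterByExpr, quasi-likelihood test, Benjamini-Hochberg over 16451 genes, threshold 0.05, no block). The standard error is the size of the fold change over the square root of F. Exon lengths are unions of exons in GENCODE release 29, which may not be the authors' annotation. A count of 0 allows up to 3 counts, which is 0.0475 to 0.0921 CPM, for counting error only. The lot in the titles pairs the libraries, and deviations of same-lot libraries from their group means correlated at 0.154 across genes. Replicates differed by far more than counting noise (coefficient of variation 0.626). Only the main edgeR fit was run on simulated counts, which held no effect of lot or gene length. Alternatives were other scaling factors and filters, DESeq2 1.42.0, limma-voom (limma 3.58.1), lot as block, glmTreat at a fold of 1.5, a threshold of 0.01, leaving out each library, and library sizes without abundant genes. Length offsets were chosen after seeing the data.

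The members and lists were chosen with earlier results of these data known. Named genes are all members, from each list up to 3 with the smallest p, 1 called in the opposite direction, 12 genes by name, and the 3 genes nearest to MYC and to MXD1 with at least 10 CPM in the higher group. Other genes were named after their values were seen, as part of a count or as LYZ, CDKN1B, NOP56, NME1, NDRG2 and the overlapping genes.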

Additional observations from a re-analysis of the deposited data

Results flagged for a closer look

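The ratio of PMA to untreated had opposite signs in the 2 lots for 5 of 38 named genes tested, as for 21.4% of all tested genes, and the difference between lots was not tested. The log2 ratio was 0.27 in lot 2 and −0.19 in lot 1 for MXI1, 2.35 in lot 2 and −0.096 in lot 1 for TXNIP, 0.12 in lot 2 and −0.78 in lot 1 for SIN3A, −0.49 in lot 2 and 0.40 in lot 1 for HDAC1, and −0.060 in lot 2 and 1.35 in lot 1 for MYCL.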

How the results depend on the processing

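Over 16 alternatives, 134 of 160 fold changes of members kept their direction and their side of the threshold, 11 passed only in the alternative, 4 were lost and 11 changed sign. The threshold of 0.01 and the fold of 1.5 reused the main fold changes, so no sign could change there. At 0.01, members not called in the main fit could not pass either. The sign of MXI1 was negative with upper-quartile factors (−0.14, where the median of all genes was −0.17), with no filter (−0.0075), with 5 CPM in 2 libraries (−0.036), with library sizes without abundant genes (−0.048), with the length offset (−0.054, and −0.026 with the replicate block), without PMA replicate 1 (−0.13) and without untreated replicate 2 (−0.26). Leaving out 1 library gave −0.26 to 0.29 for MXI1 and −0.52 to 0.073 for MAX, positive without untreated replicate 2, and MLXIP was at −0.16 with the length offset, also with the block. Of other genes, leaving out 1 library gave −0.055 to 1.28 for MYCL and −0.79 to 0.065 for SIN3A, the sign changing without untreated replicate 1, and −0.34 to 0.20 for HDAC1, positive without untreated replicate 2 and, at 0.16, without PMA replicate 2. The cause was not tested.

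Members called higher were 2 with 5 CPM in 2 libraries, DESeq2 and limma-voom, which added MXD4, and members called lower were 2 with these 3, with no filter and with the length offset, which added MXD3. Leaving out 1 library gave 1 to 2 higher and 0 to 2 lower, and without PMA replicate 1 the lower one was MXD3, not MYC. At a threshold of 0.01 every count by edgeR was 0, with 4445 genes at an unadjusted p under 0.05 and 0.0148 (CDKN1A) as the smallest adjusted p. Over the table, 705 higher and 332 lower genes compared with 2127 and 1684 by DESeq2, 1149 and 636 by limma-voom, 465 and 190 with the length offset and block, 721 lower with 5 CPM in 2 libraries and 217 lower against a fold of 1.5, and leaving out 1 library gave 424 to 1830 and 79 to 1085. With the replicate block alone there were 591 and 244, and MYC and MXD1 kept their calls (adjusted p = 0.0344 and 0.0333 by edgeR). In the fixed lists, genes called higher were 5 with 5 CPM in 2 libraries and limma-voom, 7 by DESeq2 and 2 to 8 without 1 library. Those called lower were 28 by DESeq2, 4 with the replicate block, 3 against a fold of 1.5, 3 with the length offset and block, and 0 to 31 without 1 library.

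The MYC share was 7.82% with PMA and 65.8% without when counts were not divided by length, 16.3% with PMA among MYC and the MXD genes alone, and 14.6% to 16.0% with PMA and 76.0% to 83.2% without over single libraries. Where a group is left with 1 library, that library is assumed to vary like the other group. With 2 libraries per group, a p that misses the threshold does not show that a member was unaltered, and MXD3 with 17 counts in 1 PMA library has the least precise fold change.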
